A study of Homo sapiens with 4 samples.

Results

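The 31 genes described here encode enzymes and regulators of cholesterol and fatty acid synthesis. They were taken by symbol from a table of 32973 genes in which RNA levels had been measured by RNA sequencing. All 31 symbols were found, each on 1 row. Cholesterol is built from acetyl-CoA through mevalonate, isoprenoid units, squalene and lanosterol, and fatty acids are built from malonyl-CoA, then elongated and desaturated. Many of these genes are targets of the sterol regulatory element-binding proteins (SREBPs), transcription factors that are held in the endoplasmic reticulum when sterols are plentiful and released to the nucleus when sterols are low. Cancer cells often run both pathways to supply membranes.

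The cells were 2 human bladder cancer cell lines, T24T, a derivative of the T24 line, and UMUC3. Both were grown in RPMI-1640 medium with serum and antibiotics. Stable transfection gave each line a control form, carrying vector alone, and a form overexpressing BCUC-1, which is hsa_circ_0001361, a circular RNA. The comparison was made to find its downstream genes. Every combination of line and plasmid is 1 library, called T24T vector and T24T BCUC-1, and likewise for UMUC3. Whether a stable line was 1 clone or a pool is not given in the sources used here, and the table does not measure the circular RNA. In such bulk RNA, fewer cells with a transcript and less transcript per cell cannot be told apart.

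Reads assigned to genes numbered 22730112 to 26497894 per library, and mitochondrial genes took 3.84% to 6.33% of them. Levels are RPKM, reads scaled to gene length and to the library's assigned reads, and read counts were recovered from them. Of the fixed urothelial and epithelial markers, the simple-epithelium keratins KRT8 (13.0 to 146.2 RPKM) and KRT18 (39.9 to 88.2 RPKM) were well detected in all 4 libraries. The adhesion gene CDH1 was at 0.00686 RPKM or less and the uroplakin UPK3A at 0.0419 RPKM or less. The summed level of the 13 epithelial markers was 246.9 and 263.8 RPKM in T24T against 59.1 and 61.3 RPKM in UMUC3. Most of it was KRT7, KRT8 and KRT18, which were higher in T24T. Only 4 of the 13 reached 1 RPKM in 2 libraries, and PPARG, the fourth, did not differ by line (limma adjusted p = 0.824). The mesenchymal markers VIM, CDH2, ZEB1 and FN1 summed to 95.5 and 99.9 RPKM in T24T against 262.9 and 295.1 RPKM in UMUC3. Most of the mesenchymal sum was VIM, and while VIM and ZEB1 were higher in UMUC3, CDH2 and FN1 were higher in T24T (limma adjusted p = 0.0382 and 0.00572). The part of either list in the differences between the lines was not tested. Summed leukocyte, endothelial and hepatocyte markers were at or below 0.140 RPKM in every library, from 2 of 4, 3 of 3 and 2 of 3 listed markers.

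The 31 genes took 0.343% and 0.329% of the reads in the T24T vector and BCUC-1 libraries, and 0.195% and 0.199% in the UMUC3 ones. Their summed level was 687.7, 662.8, 385.9 and 384.5 RPKM in the same order. SCD, the desaturase that makes oleate from stearate, was the most abundant of them per length in each library, at 109.6, 101.4, 55.2 and 55.7 RPKM. FDPS, HMGCS1 and CYP51A1 held ranks 2 to 4 in all 4 libraries. ABCA1, which exports cholesterol from the cell, was last, with 7, 11, 4 and 6 reads (0.0260, 0.0411, 0.0133 and 0.0233 RPKM). At that depth no difference in ABCA1 was detectable, and it stayed below the floor of 1 RPKM in 2 libraries that the tests used. The other 30 members were tested.

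**Figure D1:**
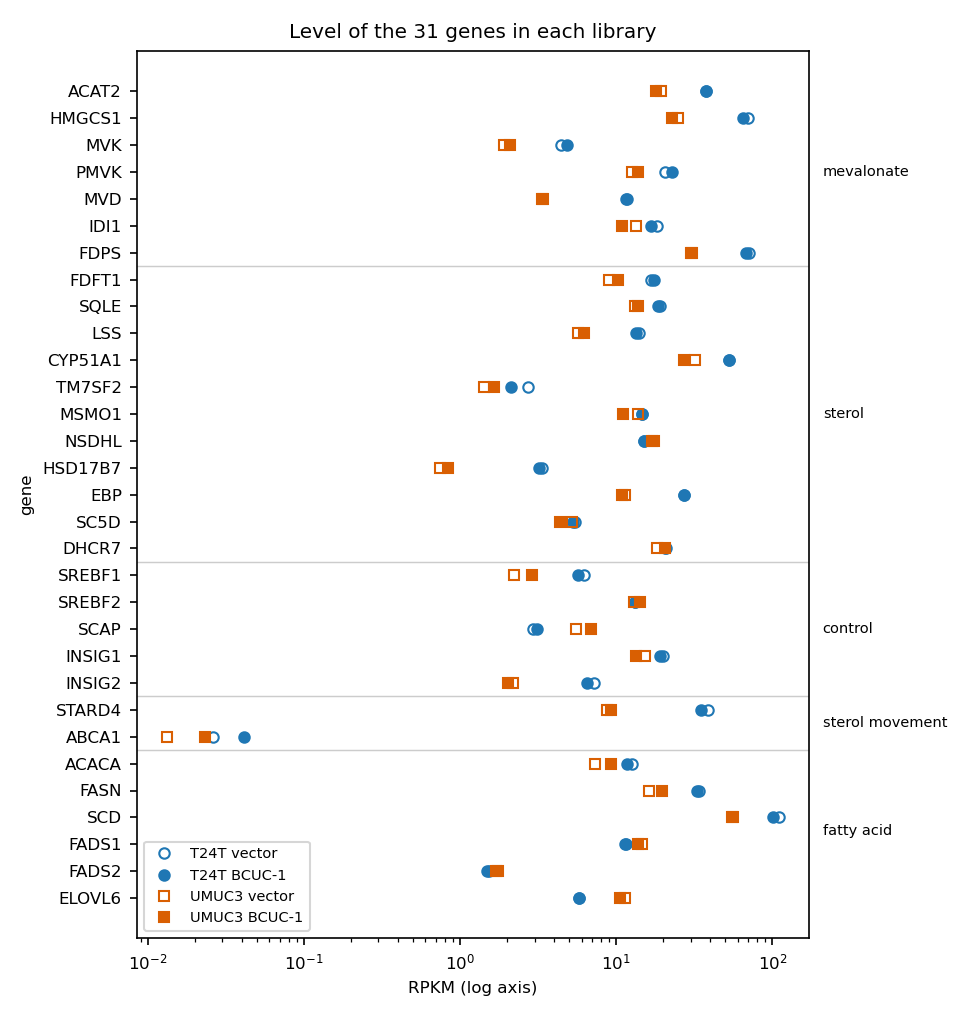
RPKM (log axis) of each of the 31 genes in the 4 libraries, 1 point per library, grouped by role; open symbols are vector, filled symbols BCUC-1. The 2 libraries of a line lie close together for most genes, SCD is highest at 55.2 to 109.6 RPKM and ABCA1 lowest at 0.0133 to 0.0411 RPKM.

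T24T and UMUC3 were compared first, since the largest differences among these genes lay between the lines. T24T libraries had more RNA for most steps of cholesterol synthesis, from HMGCS1 at the start of the mevalonate pathway (2.84 times the UMUC3 level) to EBP near its end (2.43 times). In limma, fitted over all genes on log2(RPKM + 1) with line and treatment as terms, 21 of the 30 tested members were higher in T24T and 3 were higher in UMUC3. Over all 15415 genes tested the shares were 40.8% and 29.6%, so that a call in this contrast is common by itself. The median difference was 0.72 for the members and 0.10 for all genes (T24T minus UMUC3, log2(RPKM + 1)). The libraries of the lines did not overlap for 24 members higher in T24T and 5 higher in UMUC3, against 49.2% and 36.6% of all genes.

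The 2 libraries of a line differ in treatment, and the fit, with 1 residual degree of freedom, borrowed most of its variance estimate from the other genes. The p-values therefore do not cover how much separate cultures of a line vary. With the libraries scaled to equal medians the all-gene median moved to -0.015, and with equal sums of RPKM, which was added once the data had been seen, to 0.24. The members called higher in T24T then numbered 21 and 24, and those called higher in UMUC3 4 and 2. The calls over all genes moved with them, to 5274 higher in T24T and 5550 higher in UMUC3 with equal medians and to 7333 and 3425 with equal sums, from 6289 and 4558, so the background shares depend on the scaling.

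**Figure D2:**
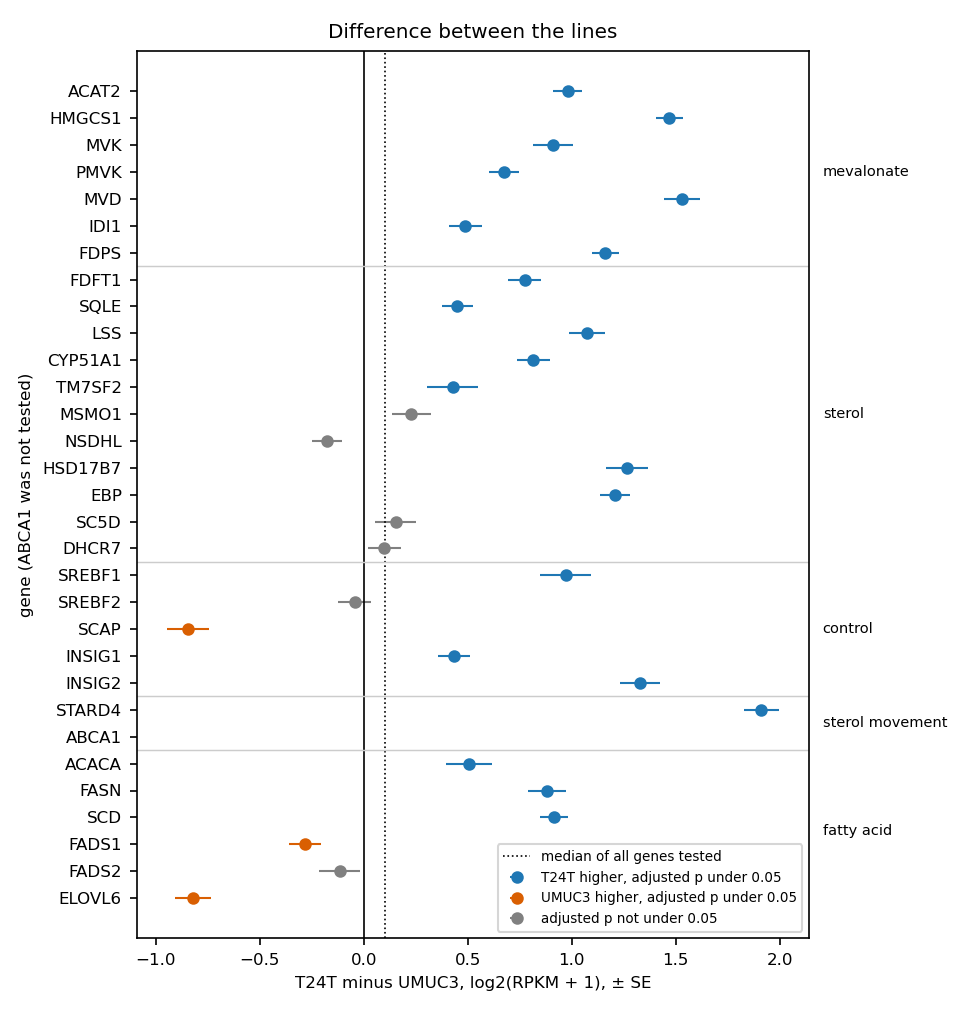
T24T minus UMUC3 difference of each member on log2(RPKM + 1), with limma's SE over the 4 libraries, grouped by role; the dotted line is the median of all genes tested (0.10). All 7 mevalonate genes lie to the right, from 0.49 for IDI1 to 1.53 for MVD, while SCAP, FADS1 and ELOVL6 lie to the left with a call and NSDHL, SREBF2 and FADS2 without one.

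All 7 genes of the mevalonate arm were higher in T24T (40.8% of all genes were), with a median difference of 0.98. ACAT2, the thiolase that makes acetoacetyl-CoA, stood at 37.4 RPKM in T24T vector and 37.8 in T24T BCUC-1 against 19.3 and 17.9 in the UMUC3 libraries. HMGCS1, which condenses it to HMG-CoA, stood at 69.9 and 64.9 against 24.7 and 22.7 RPKM. Both were separated by line with a wide gap, at differences of 0.98 (SE 0.071, limma adjusted p = 3.97e-05) and 1.47 (SE 0.064, limma adjusted p = 5.16e-06). HMGCS1 lies on chromosome 5 from 43289395 to 43313512 on the minus strand.

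The kinases and the decarboxylase that turn mevalonate into isopentenyl diphosphate followed the same order. MVK, mevalonate kinase, stood at 4.45 and 4.87 RPKM in T24T and at 1.92 and 2.10 in UMUC3. PMVK, phosphomevalonate kinase, stood at 20.5 and 22.8 against 12.6 and 13.7 RPKM. MVD, the decarboxylase on chromosome 16 (88651935 to 88663161, minus strand), stood at 11.5 and 11.8 against 3.34 and 3.41 RPKM. MVD had the widest gap of the arm, 3.45-fold between the line means, with a difference of 1.53 (SE 0.087, limma adjusted p = 1.44e-05). IDI1, the isomerase of the isoprenoid unit, had the smallest, with 18.2 and 16.6 RPKM in T24T against 13.4 and 10.9 in UMUC3. Its difference was 0.49 (SE 0.079, limma adjusted p = 0.00148), but the call was lost without T24T vector (adjusted p = 0.0999) or without T24T BCUC-1 (adjusted p = 0.0566), each fitted with no treatment term. FDPS, which joins the units into farnesyl diphosphate, stood at 70.9 and 67.3 against 30.2 and 30.4 RPKM, a difference of 1.16 (SE 0.066, limma adjusted p = 1.40e-05).

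Read counting was not shown to use strand, and some members share exon bases with neighbours. RUSC1-AS1 covers 18.6% of the FDPS exon length, and CTD-2636A23.2 covers 15.0% of HMGCS1, both on the opposite strand and both, like their partners, at higher RPKM in T24T. For ACAT2 the opposite-strand genes SOD2 and TCP1 cover 43.0% and 9.23%, and both had higher RPKM in UMUC3 than in T24T, opposite to ACAT2. CYP51A1 shares 78.8% of its exon length with LRRD1 on the same strand, so those 2 values cannot be told apart.

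In the sterol arm, 7 of 11 genes were higher in T24T (40.8% of all genes were) and the other 4 did not pass the test. FDFT1, squalene synthase, stood at 16.8 and 17.5 RPKM in T24T and at 8.92 and 10.3 in UMUC3. SQLE, squalene epoxidase, stood at 19.1 and 18.5 against 13.2 and 13.8 RPKM. LSS, lanosterol synthase, stood at 13.9 and 13.4 against 5.67 and 6.25 RPKM. These first steps after farnesyl diphosphate thus differed by 0.77, 0.45 and 1.07, with limma adjusted p-values of 0.00018, 0.00168 and 6.63e-05. CYP51A1, the lanosterol demethylase, stood at 52.7 and 52.4 against 32.1 and 27.0 RPKM, a difference of 0.82 (SE 0.079, limma adjusted p = 0.000134).

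The later sterol enzymes were split. HSD17B7, the 3-ketosteroid reductase of the demethylation complex, had 3.37 and 3.22 RPKM in T24T against 0.741 and 0.832 in UMUC3, which is 4.19-fold between the means. Its pseudogene HSD17B7P2 was listed at 1.35, 1.27, 0.752 and 0.701 RPKM, and reads of the copies may have been shared. EBP, the sterol isomerase, stood at 27.0 and 27.1 against 11.4 and 10.9 RPKM. Its difference of 1.21 (SE 0.072, limma adjusted p = 1.76e-05) was close to that of HSD17B7, 1.27 (SE 0.10, limma adjusted p = 5.82e-05). TM7SF2, the sterol C14 reductase, had 2.73 and 2.13 RPKM against 1.43 and 1.65, a difference of 0.43 (SE 0.12, limma adjusted p = 0.0183). The TM7SF2 call was lost without T24T vector, UMUC3 vector or UMUC3 BCUC-1 (adjusted p = 0.0946, 0.125 and 0.0708), with no floor (0.136) and with quantile normalization (0.0512).

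No call was made for MSMO1, NSDHL, SC5D and DHCR7. MSMO1, the C4 methyl oxidase, stood at 14.7 and 14.6 RPKM in T24T and at 13.8 and 11.0 in UMUC3 (limma adjusted p = 0.0674). NSDHL, the dehydrogenase of the same complex, stood at 15.1 and 15.1 against 16.9 and 17.5 RPKM (limma adjusted p = 0.0665). SC5D, the C5 desaturase, had 5.46 and 5.29 against 5.17 and 4.33 RPKM, and DHCR7, the last reductase, 20.8 and 20.6 against 18.1 and 20.4 RPKM (limma adjusted p = 0.200 and 0.283). Several of these passed under other settings. Without UMUC3 vector, with no treatment term, MSMO1 and SC5D passed (adjusted p = 0.00949 and 0.0492), without UMUC3 BCUC-1 DHCR7 passed (0.0289), and NSDHL passed without either (0.0271 and 0.0468). With all 4 libraries NSDHL passed with no treatment term (0.0342), quantile normalization (0.0168) or equal medians (0.00806), and MSMO1 at a floor of 5 RPKM (0.0276) and in limma-voom (0.0247). With equal sums of RPKM MSMO1, SC5D and DHCR7 passed (0.00952, 0.0435 and 0.0372). DHCR7 changed sign (-0.040) with equal medians.

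Among the control genes, the SREBP genes and their escort differed in direction. SREBF1, whose products drive fatty acid genes above all, had 6.22 and 5.65 RPKM in T24T against 2.21 and 2.89 in UMUC3. SREBF2, whose product drives the cholesterol genes, had 13.1 and 13.2 against 12.9 and 14.3 RPKM, so its libraries overlapped. SCAP, which escorts both proteins to the Golgi for cleavage, had 2.91 and 3.09 against 5.54 and 6.88 RPKM and was higher in UMUC3. The differences were 0.97 for SREBF1 (SE 0.12, limma adjusted p = 0.000454), -0.04 for SREBF2 (SE 0.079, limma adjusted p = 0.637) and -0.84 for SCAP (SE 0.10, limma adjusted p = 0.000369). The sign of SREBF2 flipped with equal sums of RPKM and without UMUC3 BCUC-1. SREBF1 lies on chromosome 17 from 17810399 to 17837002 and SCAP on chromosome 3 from 47413694 to 47477126, both on the minus strand.

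The INSIG proteins retain SCAP in the endoplasmic reticulum. INSIG2 had 7.17 and 6.45 RPKM in T24T against 2.18 and 2.04 in UMUC3, 3.23-fold between the means, with a difference of 1.33 (SE 0.096, limma adjusted p = 3.93e-05). INSIG1, itself a classical SREBP target, had 20.04 and 19.2 against 15.2 and 13.3 RPKM, a difference of 0.43 (SE 0.075, limma adjusted p = 0.00199) that was lost without T24T vector (adjusted p = 0.0631). T24T was thus higher for both genes. The retention genes and the escort gene SCAP stood in opposite order between the lines.

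STARD4, a soluble carrier that moves cholesterol between membranes, had the largest line difference of the 30 tested members on log2(RPKM + 1). By the ratio of line means, 4.08, it came after HSD17B7, which was also ahead in limma-voom on the reads (2.06 against 2.03). It stood at 38.4 and 34.7 RPKM in the vector and BCUC-1 libraries of T24T, far above 8.69 and 9.24 RPKM in those of UMUC3. By reads the vector libraries differed 4.42-fold (95% interval 4.16 to 4.70, counting error only). Its difference was 1.91 (SE 0.083, limma adjusted p = 5.14e-06), and STARD4 moved from rank 5 or 6 of the 31 genes in T24T to rank 19 in both UMUC3 libraries. STARD4 lies on chromosome 5 from 111496033 to 111512590 on the minus strand.

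Fatty acid genes differed in direction. The synthesis enzymes ACACA and FASN and the desaturase SCD were higher in T24T. FADS1 and ELOVL6 were higher in UMUC3 and FADS2 did not pass. ACACA, which makes malonyl-CoA, had 12.6 and 11.6 RPKM in T24T against 7.35 and 9.21 in UMUC3. FASN, the fatty acid synthase, had 34.1 and 33.1 against 16.1 and 19.6 RPKM. Their differences were 0.51 (SE 0.11, limma adjusted p = 0.0059) and 0.88 (SE 0.091, limma adjusted p = 0.000185), and that of SCD was 0.92 (SE 0.066, limma adjusted p = 3.95e-05). The ACACA call was lost without T24T vector or T24T BCUC-1 (adjusted p = 0.0998 and 0.0618) and with no floor (0.0862).

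ELOVL6, which extends palmitate to stearate, had 5.76 and 5.75 RPKM in T24T against 11.3 and 10.6 in UMUC3. The T24T libraries lay below both UMUC3 libraries, and the difference was -0.82 (SE 0.085, limma adjusted p = 0.000183). FADS1, the delta-5 desaturase of polyunsaturated fatty acids, had 11.5 and 11.4 against 14.6 and 13.8 RPKM, a difference of -0.28 (SE 0.076, limma adjusted p = 0.0143). That call was lost without either T24T library (adjusted p = 0.0825 and 0.0909) and with equal sums of RPKM (0.201). FADS2, the delta-6 desaturase, had 1.54 and 1.48 against 1.69 and 1.74 RPKM (limma adjusted p = 0.318). SCD and ELOVL6 act on neighbouring substrates, and their line differences had opposite signs.

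Since many members differed together between the lines, their promoters were searched in RefSeq windows on GRCh38.p14, from 250 bases before to 50 bases after a start. Windows were found for 27 of the 31 genes. ACAT2, FASN, FDFT1 and SQLE had none and were not searched. The motifs were TCACNCCAC, a relaxed sterol regulatory element, CCAAT, the box bound by NF-Y, which acts beside SREBPs, and GGGCGG, the SP1 box, each on both strands. CCAAT was present for 19 of 27 members (70.4%), against 39.7% of all 27305 symbols in the table and 42.1% of the protein-coding ones. GGGCGG was present for 26 of 27 (96.3%), against 48.3% and 64.3%. TCACNCCAC was present for 1 member, SREBF2 (3.70% against 1.39% of all symbols). SCAP, FADS1 and ELOVL6, the members higher in UMUC3, had no CCAAT in their windows, nor had ABCA1, CYP51A1, INSIG2, PMVK and SREBF1. A match describes letters only.

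The 250 bases before the start are shown for 4 members, 5′ to 3′ on the strand of the gene. SREBF2 is the 1 member of the 27 searched with the sterol element. The others are the 3 members with the largest line differences on log2(RPKM + 1). Capitals mark the NF-Y box, which reads CCAAT or, where it lies on the other strand, its reverse complement, and in SREBF2 also the sterol element TCACCCCAC. In SREBF2 that element begins at -133 from the start and the reversed box at -106. STARD4 holds the forward box at -161 and -130, MVD the reversed box at -159 and -120 and the forward one at -85, and HMGCS1 the reversed box at -155 and -100. HMGCS1 has 2 windows, and the one with more CCAAT boxes was chosen for display. Its other window held no CCAAT.
SREBF2, chr22:41832855-41833104, plus strand: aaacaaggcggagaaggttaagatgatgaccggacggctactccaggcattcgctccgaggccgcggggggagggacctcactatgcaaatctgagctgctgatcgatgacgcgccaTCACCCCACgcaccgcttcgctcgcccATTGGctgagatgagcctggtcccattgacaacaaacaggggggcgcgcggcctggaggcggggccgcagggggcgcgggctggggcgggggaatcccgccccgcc
STARD4, chr5:111512536-111512785, minus strand: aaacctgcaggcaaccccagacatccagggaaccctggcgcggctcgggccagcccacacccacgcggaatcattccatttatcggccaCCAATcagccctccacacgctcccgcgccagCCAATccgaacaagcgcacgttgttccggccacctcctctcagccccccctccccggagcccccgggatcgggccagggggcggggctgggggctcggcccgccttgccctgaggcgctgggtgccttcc
MVD, chr16:88663092-88663341, minus strand: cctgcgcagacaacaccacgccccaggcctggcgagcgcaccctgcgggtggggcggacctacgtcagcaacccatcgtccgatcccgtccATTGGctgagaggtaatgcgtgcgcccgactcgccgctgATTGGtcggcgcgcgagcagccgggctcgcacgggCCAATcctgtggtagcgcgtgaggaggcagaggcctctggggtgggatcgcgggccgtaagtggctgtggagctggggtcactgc
HMGCS1, chr5:43313413-43313662, minus strand: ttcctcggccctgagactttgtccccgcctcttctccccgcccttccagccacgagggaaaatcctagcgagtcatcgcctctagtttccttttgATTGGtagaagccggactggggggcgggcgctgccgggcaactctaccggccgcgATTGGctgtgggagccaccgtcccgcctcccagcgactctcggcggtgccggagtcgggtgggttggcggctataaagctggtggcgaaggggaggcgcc

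BCUC-1 was then compared with vector. Over both lines, 0 of 30 tested members passed limma's test with line as a term, against 0.0% of all 15415 genes in either direction. At an unadjusted p under 0.05 there were 318 higher and 334 lower genes (2.06% and 2.17%). IDI1 was the 1 member among them, with a value of -0.20 (SE 0.079, limma adjusted p = 0.998, lower in 2 of 2 lines). The next largest values were 0.17 for SCAP (SE 0.10, limma adjusted p = 0.998) and -0.16 for MSMO1 (SE 0.095, limma adjusted p = 0.998). No other setting called a member, including limma-voom on the recovered reads, which called 3 higher and 10 lower genes in all. Among the 29 members above 1 RPKM in both lines, 6 were higher with BCUC-1 in both, 9 lower in both and 14 opposite. Of all genes, 25.6% were higher in both and 23.7% lower in both.

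Within a line each group is 1 library, so ratios of RPKM are given with exact Clopper-Pearson 95% intervals that cover counting error only. They compare libraries, not conditions. A fold of 1.2 was used to count differences.

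In T24T the members barely differed. None was 1.2-fold higher with BCUC-1 (4.9% of genes above 1 RPKM were), and 1 of 30 was 1.2-fold lower (9.76% of genes). None differed 2-fold (0.85% of genes were 2-fold higher and 1.12% lower). The 1 member was TM7SF2, with 220 reads in the vector and 171 in the BCUC-1 library, a ratio of 0.780 (0.635 to 0.957). Of the 30 members 22 were lower and 8 higher by any size, against 56.6% and 43.4% of genes, with a median log2 ratio of -0.044 against -0.019. All 6 fatty acid genes were lower, from 0.920 (0.879 to 0.963) for ACACA to 0.997 (0.912 to 1.09) for ELOVL6. SCD had 13921 and 12821 reads, a ratio of 0.925 (0.903 to 0.947), and STARD4 5175 and 4647 reads, a ratio of 0.901 (0.866 to 0.938). HMGCS1 had 7787 and 7203 reads (0.929, 0.899 to 0.959). Intervals lay below 1 for 8 of the 30 members, TM7SF2 among them, and above 1 for 0, against 9.98% and 5.41% of genes above 1 RPKM. Such intervals narrow as reads rise, and the genes compared were not matched to the members in reads. The other 7 differed by under 1.2-fold. The SD of the log2 ratio was 0.087 over the 7683 genes whose reads in both libraries summed to 1000 or more, a limit added once the data had been seen, and it was 0.079 over the 26 members among them. None of those 26 was 1.2-fold higher or lower (0.13% and 0.937% of such genes).

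**Figure D3:**
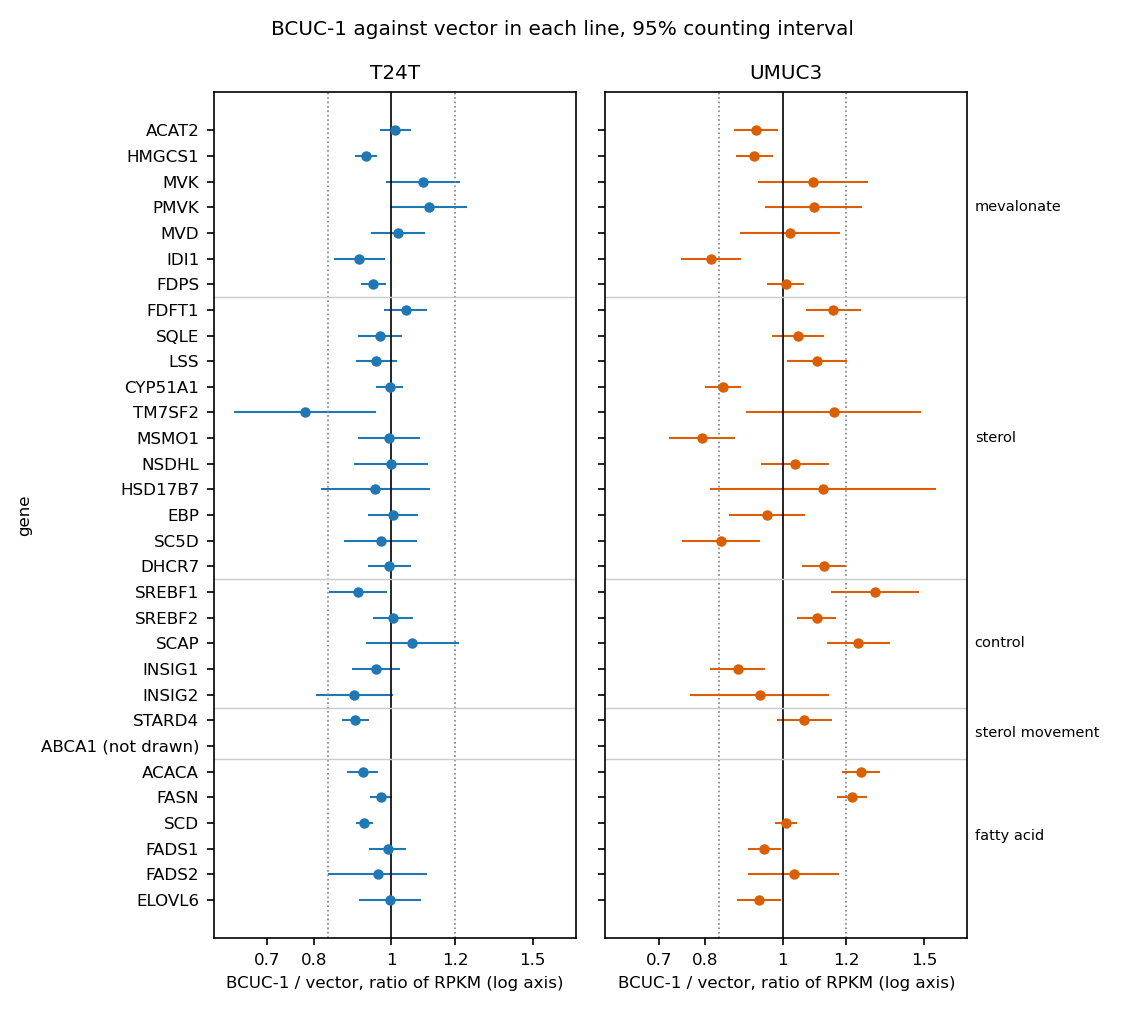
Ratio of RPKM, BCUC-1 over vector (log axis), for 30 members in each line with exact 95% counting intervals; dotted lines mark 1.2-fold either way. T24T members lie near 1 with only TM7SF2 (0.780) past the lines, whereas UMUC3 members run from 0.793 (MSMO1) to 1.30 (SREBF1).

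In UMUC3 the ratios spread more widely. Of 29 members above 1 RPKM, 4 were 1.2-fold higher with BCUC-1 (13.8% of genes were) and 2 were 1.2-fold lower (9.1% of genes). The 4 were SREBF1, ACACA, SCAP and FASN, a share of the members close to that of all genes. SREBF1 went from 471 to 527 reads although the BCUC-1 library is shallower, which makes a ratio of 1.30 (1.15 to 1.48). ACACA had 2535 and 2724 reads (1.25, 1.19 to 1.32), SCAP 925 and 985 (1.24, 1.13 to 1.36), and FASN 3995 and 4179 (1.22, 1.17 to 1.27). Lower were MSMO1, with 1060 and 721 reads (0.793, 0.720 to 0.872), and IDI1, with 1278 and 891 (0.813, 0.745 to 0.886). CYP51A1 (0.843, 0.800 to 0.888), SC5D (0.837, 0.749 to 0.936) and INSIG1 (0.878, 0.811 to 0.950) came next. SCD, at 7840 and 6784 reads, had a ratio of 1.01 (0.976 to 1.04). By any size 18 members were higher and 11 lower, against 57.4% and 42.6% of genes. Of the 22 members with 1000 or more reads in the pair, 3 were 1.2-fold higher and 2 lower (4.75% and 4.39% of such genes), and none of the 29 differed 2-fold (1.3% of genes were 2-fold higher and 0.955% lower).

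SREBF1 and ACACA had intervals on opposite sides of 1 in the lines, since in T24T SREBF1 stood at 0.908 (0.835 to 0.987) and ACACA at 0.920. A line by treatment term leaves no residual degree of freedom, so the difference was not tested. The share of all genes with intervals on opposite sides of 1 was not counted. In UMUC3, 8 of 29 intervals lay above 1 and 9 below, against 21.0% and 14.9% of genes above 1 RPKM, which were not matched in reads either.

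The UMUC3 ratios moved with GC content, the share of G and C bases in the longest GENCODE 29 transcript. Across 30 tested members the correlation of the log2 ratio with GC content (Pearson r, then Spearman rho) was 0.657 and 0.656 in UMUC3 and 0.177 and 0.313 in T24T. All points of a line share the same 2 libraries. Over all genes tested the Spearman rho was 0.544 in UMUC3 and 0.0232 in T24T. Of the 15 members above the median GC of 50.1%, 13 were higher in UMUC3 BCUC-1, and of the 15 at or below it 6 were. SREBF1 (62.8% GC), SCAP (62.3%) and FASN (65.3%) are GC-rich, MSMO1 (38.1%) and IDI1 (41.1%) GC-poor, and ACACA lies between at 48.7%.

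With the GC trend of all genes removed from each line, the UMUC3 log2 ratio of FASN went from 0.29 to 0.052, that of SCAP from 0.31 to 0.11 and that of SREBF1 from 0.38 to 0.19. ACACA kept most of its value, 0.33 against 0.27. MSMO1 went from -0.33 to -0.20 and IDI1 from -0.30 to -0.23. The members past 1.2-fold were then ACACA and STARD4, both higher, and 0 lower. STARD4 (34.2% GC) went from 0.089 to 0.28. All 7 mevalonate genes were then lower in UMUC3 BCUC-1, from -0.23 for IDI1 to -0.018 for MVK with a median of -0.12, against 5653 higher and 5712 lower genes overall. Without the correction 4 of the 7 were higher and 3 lower. The SD over UMUC3 genes with 1000 or more reads was 0.12 after the correction. Of the members with that many reads, ACACA, STARD4, MSMO1, IDI1, ACAT2, FDPS, INSIG1, CYP51A1, EBP, SC5D, FDFT1 and FADS1 lay outside it. FASN, SCAP, HMGCS1, SQLE, LSS, DHCR7, SREBF2, SCD, ELOVL6 and NSDHL lay inside. The share of all genes with that many reads outside this SD was not counted, so these lists only describe single members. SREBF1, MVD, PMVK, MVK and the remaining members had fewer reads, so that SD does not apply to them.

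**Figure D4:**
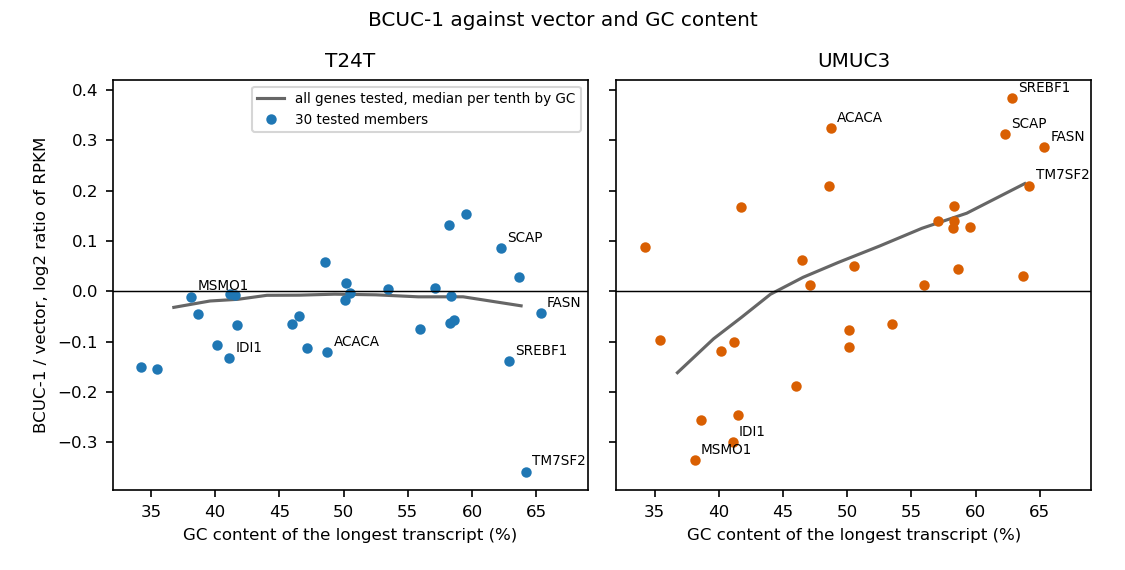
Log2 ratio of RPKM, BCUC-1 over vector, against transcript GC content (%) for the 30 tested members in each line; the grey line joins the medians of all tested genes in 10 groups by GC. In UMUC3 the all-gene line climbs from -0.16 to 0.21 and the members tend to rise too, with ACACA and STARD4 among those above it. In T24T the line stays between -0.032 and -0.0055.

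Neighbouring pathways were read from lists chosen with earlier results of these data known. Of 12 genes of isoprenoid use, 4 were higher in T24T, 2 in UMUC3 and 6 did not pass, with a median of 0.13. Over all genes tested, 40.8% were higher in T24T and 29.6% in UMUC3, with a median of 0.10. GGPS1, which makes geranylgeranyl diphosphate, had 7.93 and 8.02 RPKM in T24T against 5.03 and 4.41 in UMUC3 (0.65, limma adjusted p = 0.000855). DHDDS, of dolichol synthesis, differed by 0.46. PDSS1, of the coenzyme Q side chain, had 4.67 and 5.29 against 8.40 and 8.35 RPKM (-0.65, limma adjusted p = 0.000784), and the prenyltransferase subunit FNTA differed by -0.46. The FNTA call was lost without T24T vector (adjusted p = 0.0518). DHDDS had BCUC-1 log2 ratios of 0.030 in T24T and 0.11 in UMUC3 (0.0093 with the GC trend removed).

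Of 13 tested genes of sterol uptake, storage and transport, 3 were higher in T24T, 7 in UMUC3 and 3 did not pass, beside 40.8% and 29.6% of all genes. The median was -0.28, against 0.10 for all genes. MYLIP, the ubiquitin ligase that degrades lipoprotein receptors, had 0.432 and 0.363 RPKM in T24T against 2.89 and 3.12 in UMUC3 (-1.52, limma adjusted p = 2.70e-05). VLDLR, a lipoprotein receptor, had 0.181 and 0.168 against 1.63 and 1.61 RPKM (-1.16, limma adjusted p = 5.81e-05). LIPA, the lysosomal lipase that frees cholesterol from its esters, had 18.2 and 16.8 against 7.96 and 9.02 RPKM (0.96, limma adjusted p = 0.000131), and the late endosomal carrier STARD3 differed by 0.59. In T24T all 11 genes of this list above 1 RPKM were lower with BCUC-1 (56.6% of genes were), with a median log2 ratio of -0.054. In UMUC3 4 of 13 were lower (42.6% of genes were). After removal of the GC trend, 9 of the 11 were lower in T24T and 7 of the 13 in UMUC3. SOAT1, the cholesterol esterifying enzyme, stood at -0.0022 and -0.27, and the SREBP protease gene MBTPS2 at -0.015 and -0.11. With the GC trend removed both MBTPS2 values turned positive (0.022 and 0.079), as did the T24T value of SOAT1 (0.014, with -0.18 in UMUC3).

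The list of fatty acid supply, activation and elongation had 9 genes higher in T24T, 3 in UMUC3 and 2 that did not pass, with a median of 0.46. Beside these counts stand 40.8% and 29.6% of all genes. ACSL4, an acyl-CoA synthetase for arachidonate, held the widest gap, with 22.3 and 22.8 RPKM in T24T against 0.0353 and 0.0343 in UMUC3 (4.51, SE 0.095, limma adjusted p = 5.58e-07). ELOVL7 had 8.79 and 8.42 against 0.973 and 0.846 RPKM (2.33, limma adjusted p = 4.45e-06). ELOVL1 stood higher in UMUC3, with 29.7 and 31.6 RPKM against 15.4 and 15.9 in T24T (-0.93, limma adjusted p = 4.44e-05). FADS3 differed by -0.45, a call lost without T24T vector, T24T BCUC-1 or UMUC3 BCUC-1 (adjusted p = 0.0568, 0.173 and 0.152). ELOVL5 was higher in T24T (0.79, limma adjusted p = 0.000102). The elongases thus differed in direction, with ELOVL5 and ELOVL7 higher in T24T and ELOVL1 and ELOVL6 higher in UMUC3. The mitochondrial citrate carrier SLC25A1 had BCUC-1 log2 ratios of 0.013 in T24T and 0.29 in UMUC3 (0.060 with the GC trend removed), and ELOVL5 -0.00033 and -0.18 (0.020 and -0.11 with the trend removed).

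Of 7 glycerolipid synthesis genes, 1 was higher in T24T, 4 in UMUC3 and 2 did not pass, with a median of -0.33. Again 40.8% of all genes were higher in T24T and 29.6% in UMUC3. DGAT2, which makes triglyceride, had 0.0855 and 0.0697 RPKM in T24T against 3.26 and 4.07 in UMUC3 (-2.11, limma adjusted p = 9.98e-06). AGPAT2 differed by -0.79, and LPCAT3, a lysophospholipid acyltransferase, by 1.01. GPAM and LPIN2 had BCUC-1 log2 ratios of -0.067 and 0.096 in T24T and -0.13 and 0.11 in UMUC3 (-0.065 and 0.056 with the GC trend removed). Of 8 fatty acid oxidation genes, 3 were higher in T24T, 3 in UMUC3 and 2 did not pass, with a median of -0.17. These counts lie near the same shares of all genes. CPT1A, which admits fatty acids to mitochondria, had 9.04 and 9.49 against 22.6 and 24.9 RPKM (-1.27, limma adjusted p = 1.64e-05), and ACADVL differed by -0.71. PPARA, a regulator of fatty acid oxidation genes, differed by 0.63, a call that was lost with no floor (limma adjusted p = 0.0528). CPT1A and ACADM had BCUC-1 log2 ratios of 0.070 and -0.021 in T24T and 0.14 and -0.16 in UMUC3 (0.081 and -0.097 with the GC trend removed).

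**Figure D5:**
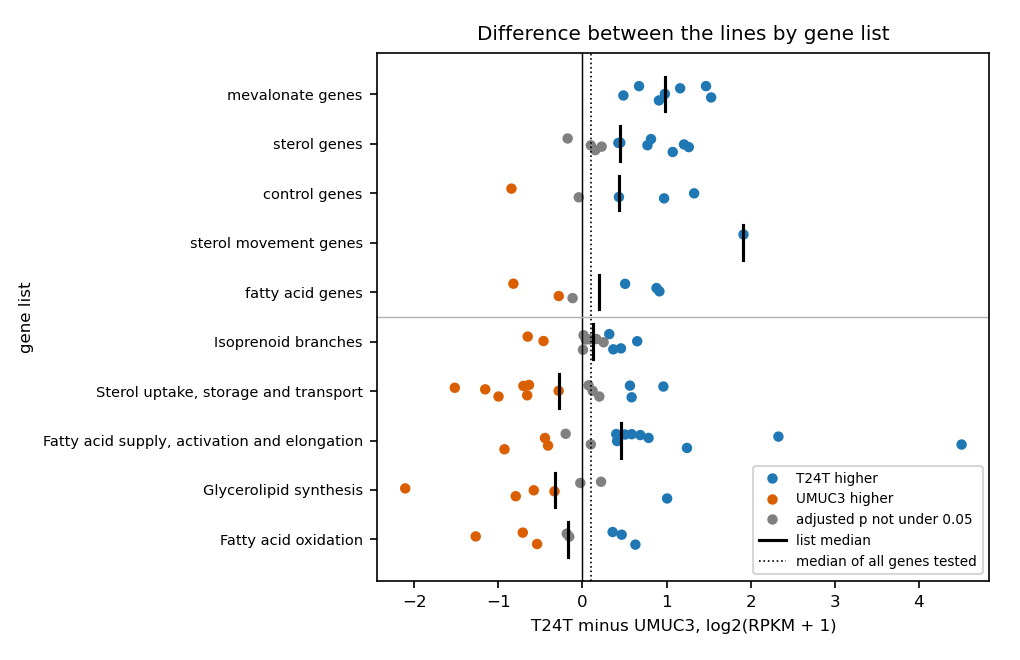
T24T minus UMUC3 differences on log2(RPKM + 1) of the tested genes of each list, 1 point per gene, with the list median as a bar and the median of all genes (0.10) dotted. The mevalonate genes have a median of 0.98 with no gene below 0.49, and the glycerolipid list has a median of -0.33; ACSL4 at 4.51 is the farthest point.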

How the data were processed

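RNA of 4 libraries was sequenced. The authors deposited RPKM values per gene with gene lengths. The submitters' processing notes name Bowtie 0.12.2, in a role not given in the sources used here, and the build and annotation are not given either. Of 22720 symbols matched to 1 gene, 96.8% shared a start or end with GENCODE 29 on GRCh38, whose coordinates are used. All RPKM values gave whole reads within 0.01 reads once multiplied by length and depth. Totals were 23679229 and 23588847 reads for T24T with vector and with BCUC-1, and 26497894 and 22730112 reads for UMUC3.

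Differences between lines and between treatments were tested with limma 3.58.1 (R 4.3.3, two-sided, intensity trend) on log2(RPKM + 1) over 15415 genes with at least 1 RPKM in 2 libraries. P-values were adjusted by Benjamini-Hochberg over all of them with a threshold of 0.05, and the fit was tested on simulated data. Within a line, ratios of RPKM have exact Clopper-Pearson 95% intervals from the reads, which cover counting error only, since no molecular identifiers tell copies of a molecule apart. GC trends are median changes in 20 bins, with GC for 69.1% of listed genes and all 31 members. Alternatives changed the pseudocount, floor, scaling, model terms, libraries, GC correction and motif. Members and lists were chosen with earlier results of these data known. All 31 members are named. From each pathway list up to 2 genes past the line test in each direction and up to 2 with the largest BCUC-1 value of 1 sign in both lines are named. Some genes that this rule picks are not reported here.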

Additional observations from a re-analysis of the deposited data

Results flagged for a closer look

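In T24T and UMUC3 the BCUC-1 and vector libraries differed in opposite directions for SREBF1 and ACACA, with counting intervals on opposite sides of 1. The log2 ratio of BCUC-1 to vector for SREBF1 was -0.14 in T24T and 0.38 in UMUC3. For ACACA it was -0.12 in T24T and 0.33 in UMUC3. Removing the GC trend gave -0.11 and 0.19 for SREBF1 and -0.11 and 0.27 for ACACA. Each value comes from 1 pair of libraries and the difference between the lines was not tested.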

How the results depend on the processing

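No analysis paired by replicate number was possible because each group has 1 library, so the groups share fewer than 2 replicate numbers. The BCUC-1 fit over both lines had line as a term, which sets each BCUC-1 library against the vector library of its line. For T24T against UMUC3, leaving out 1 library gave 4569 to 6067 genes higher in T24T and 3186 to 4403 higher in UMUC3, with 17 to 22 and 2 to 4 members. In these fits the lone library of a line is assumed to vary like the other line. A floor of 5 RPKM, under which fewer genes are tested, called 3773 and 3007 genes (6289 and 4558 at 1 RPKM), and quantile normalization called 5 members higher in UMUC3 (3 without it). Limma-voom on the recovered reads called 6474 and 4711 genes. Signs turned for DHCR7 with equal medians (-0.040) and for SREBF2 with equal RPKM sums (0.11). These scalings moved the all-gene median from 0.10 to -0.015 and 0.24. SREBF2 ranged from -0.11 to 0.022 when 1 library was left out, the highest value being that without UMUC3 BCUC-1. Of the single-gene values of this comparison, 617 were counted as unchanged, 22 lost a call, 14 gained one, 3 changed sign and 20 moved. Values from the vector or the BCUC-1 libraries alone carry no call. They counted as unchanged when close to the main value relative to its SE, and as moved otherwise. Their sign could still turn, as for SREBF2 with the vector libraries alone (0.019).

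Over both lines the genes higher and lower with BCUC-1, 0 and 0 at first, were 26 and 34 with a floor of 5 RPKM, 2 and 2 with equal medians, 3 and 10 with limma-voom, and 0 and 1 with a pseudocount of 0.1. Members stayed at 0 under each of these. In T24T the 1 member 1.2-fold lower became 0 on log2(RPKM + 1) and 0 with at least 1000 reads in the pair, the latter chosen after seeing the data. In UMUC3 the members 1.2-fold higher went from 4 to 2 with the GC trend removed, and those 1.2-fold lower from 2 to 0 with the GC trend removed and to 4 with equal medians. CACCCCAC in place of TCACNCCAC was present for 2 members in place of 1. Depth limits ABCA1 (4 to 11 reads), TM7SF2 (128 to 220) and HSD17B7 in UMUC3 (78 and 81).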
